A study of Mus musculus with 43 samples.

Results

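Irradiation-lost regions were stretches of open chromatin that carried an ATAC-seq peak in all 3 libraries of non-irradiated organoids and in none of the 3 libraries of irradiated organoids, both given vehicle and collected on day 7 (D7). Peaks of all 18 ATAC-seq lists on chromosomes 1 to 19 were merged into 59945 regions wherever they overlapped by at least 1 bp. Of these, 852 (1.42%) met the rule. ATAC-seq uses a transposase that inserts adapters into accessible DNA, so a peak marks a place where the DNA was open in many cells. The organoids were grown from intestine of wild-type C57BL/6 mice and measured in 6 groups of 3 libraries. Non-irradiated organoids (D7 non-IR) and organoids given 4 Gy on day 4 (D7 IR) were collected on day 7, and other organoids given 4 Gy on day 4 were collected on day 11 (D11). Each of the 3 conditions received either vehicle or TGFB1 (2 ng/mL) from day 6 over 24 h, so the D11 organoids were collected 4 days after it ended. The labels number the replicates and do not say whether they came from separate cultures or mice, so the spread between them may be technical. Presence in the 6 D7 vehicle lists was fixed by the rule and is no result. The 12 other lists were not used by it.

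The intestinal epithelium is renewed from stem cells at the base of the crypt, and ionizing radiation kills many of the dividing cells there. Surviving cells then rebuild the crypt, and parts of this repair pass through a state in which stem cell genes are low and genes of fetal or injured epithelium are high. TGFB1 is a secreted ligand that binds a pair of receptor kinases and acts through SMAD transcription factors, and it restrains the growth of intestinal epithelial cells. Accessible regions outside promoters are often enhancers, whose opening and closing follows the cell state and the transcription factors present. A culture holds several epithelial cell types, so in these bulk libraries fewer cells of a type and less accessibility per cell cannot be told apart.

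The lists held 19907 to 48078 peaks on chromosomes 1 to 19, each a window of 601 bp. Column 5 of a list gives the authors' score of a peak, −log10 of its q-value. It depends on the depth of its library as well as on the region, so scores of different lists are given side by side and not read as changes of a region. No read counts were used here, so the depth of the libraries is unknown. The D7 vehicle lists held 27158, 27238 and 28308 peaks without irradiation and 22567, 24194 and 25683 peaks with it. Over the 11329 regions present in all 18 libraries, the median score of a list was 19.9 to 21.9 in D7 non-IR vehicle and 10.7 to 14.1 in D7 IR vehicle. Even always-present regions had lower scores in the irradiated D7 vehicle lists, which were also shorter, and the part of either in the loss of the 852 regions was not tested. Within a group, 2 lists shared 0.553 to 1.48% identical windows, so none was a copy of another. RNA libraries of the same 6 groups held 8 of 8 epithelial markers at 1 FPKM or more in each of 18 libraries, with Epcam, an epithelial adhesion protein, at 532 to 2148 FPKM. Of 15 markers of blood, endothelial, stromal, muscle and glial cells, 12 were under 1 FPKM in every library, and the summed level of the 15 was 1.94 to 7.65 FPKM.

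Most of the lost regions had a peak at D11 when the organoids had received vehicle, and fewer had one after TGFB1. In D11 vehicle replicates 1, 2 and 3, 96.9, 97.4 and 81.7% of the 852 regions had a peak (92.0% ± 8.95, SD, n = 3). In D11 TGFB1 the shares were 67.0, 69.6 and 48.5% (61.7% ± 11.5, SD, n = 3). Every D11 vehicle library lay above every D11 TGFB1 library, and the means were 30.3 percentage points apart. At D7, irradiated organoids given TGFB1 had a peak at 53.3, 31.9 and 29.5% of the regions (38.2% ± 13.1, SD, n = 3). Absence from D7 IR vehicle was set by the rule, so this share is not read as a return at D7. Without D7 IR vehicle replicate 1, 2 or 3 the rule found 1254, 1465 or 1482 regions. Each left-out vehicle library thus also held many regions that the rest of its group lacked. The D7 IR TGFB1 and D11 TGFB1 libraries overlapped, since replicate 1 of the former (53.3%) was above replicate 3 of the latter (48.5%). No p-value is given for these shares, because the regions were chosen with earlier results of the same lists known.

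**Figure D1:**
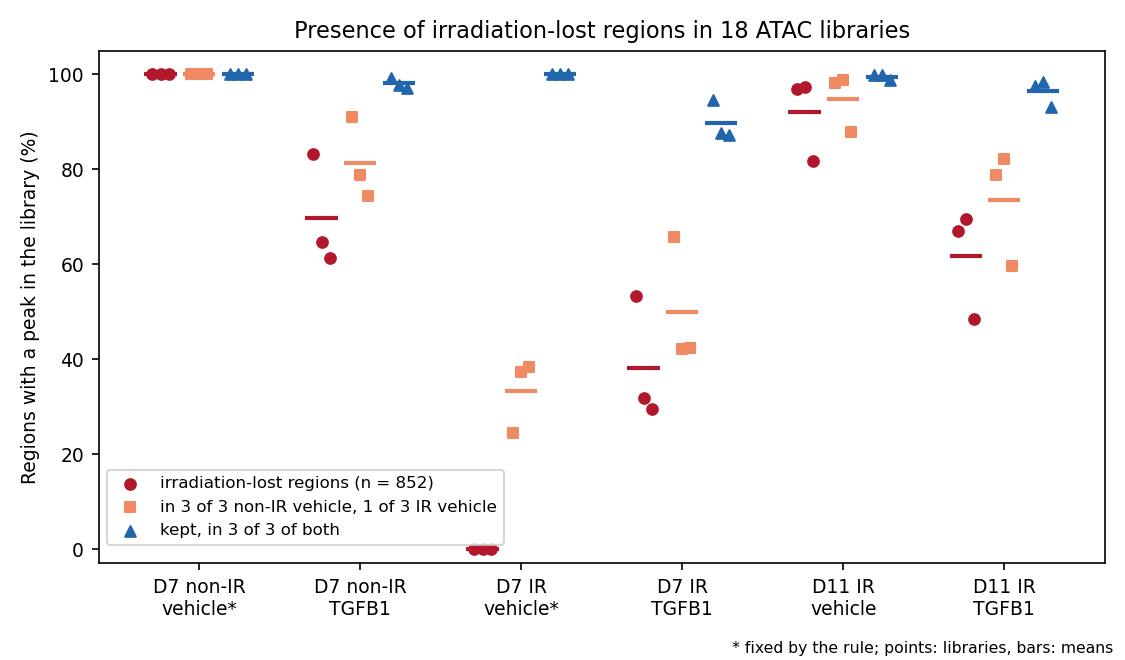
Share of regions with a peak in each of the 18 ATAC-seq libraries (y axis, percent) for the 6 groups (x axis), with points for libraries and bars for group means. Irradiation-lost regions (circles) are at 81.7 to 97.4% in D11 vehicle and 48.5 to 69.6% in D11 TGFB1, while regions kept in all 3 D7 IR vehicle lists (triangles) run from 87.3 to 100% over all libraries.

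Since a longer list can hold more regions, the shares were set beside list length. The D11 vehicle lists held 40513, 48078 and 29956 peaks and the D11 TGFB1 lists 31982, 37184 and 28523 peaks. D11 vehicle replicate 3, with 29956 peaks, held 81.7% of the lost regions, and D11 TGFB1 replicate 2, with 37184 peaks, held 69.6%. In that pair the shorter list held the larger share. It also had the higher median score over regions present in all 18 libraries, 26.9 against 23.1. D11 vehicle replicates 1 and 2 had both longer lists and larger shares than any D11 TGFB1 library. The part of list length in the D11 difference was not tested. The longest D7 IR TGFB1 list, replicate 1 with 27368 peaks, also held the largest share of its group, and the other two held 19907 and 20522 peaks. Over regions present in all 18 libraries, the median score was 26.9 to 37.9 in the D11 vehicle lists, 14.7 to 24.0 in the D11 TGFB1 lists and 11.2 to 13.3 in the D7 IR TGFB1 lists. These medians ordered the 3 groups as the shares did, and their part in the shares was not tested.

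**Figure D2:**
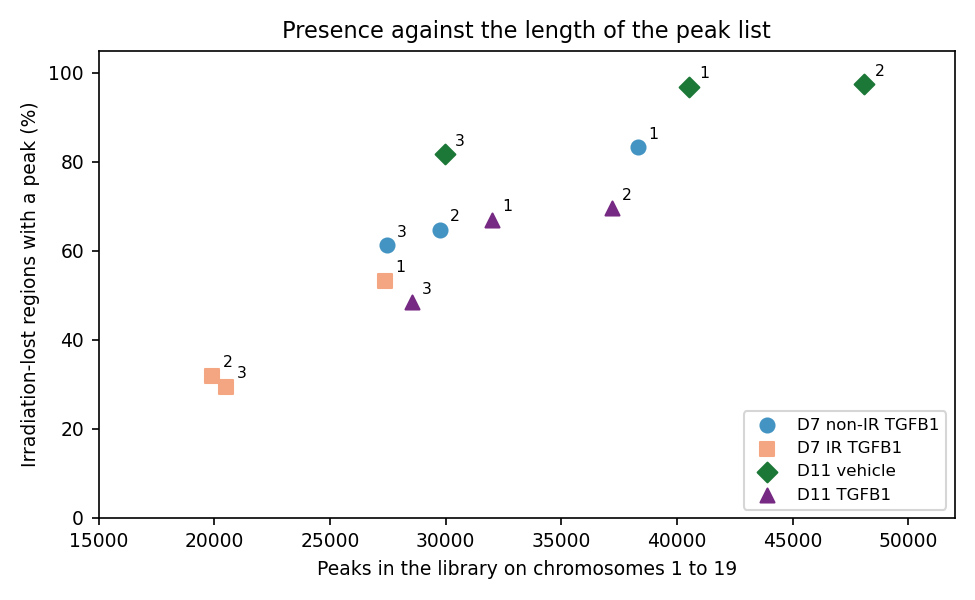
Share of the 852 irradiation-lost regions with a peak (y axis, percent) against the number of peaks in the library's list (x axis), 1 point per library outside the rule, numbered by replicate. D11 vehicle replicate 3, at 81.7% with 29956 peaks, lies above D11 TGFB1 replicates 1 and 2, whose lists are longer (67.0 and 69.6% with 31982 and 37184 peaks). D11 vehicle replicates 1 and 2 have both longer lists and larger shares than any D11 TGFB1 library.

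Shortening every list to its 19907 highest-scoring peaks, the length of the shortest list, changed the set and some of the shares. Under equal lengths the rule found 418 lost regions, of which 159 overlapped one of the 852 (38.0% of the 418 and 18.7% of the 852). In these 418, D11 vehicle had 79.4, 74.6 and 75.1% and D11 TGFB1 54.5, 49.5 and 45.7%, a difference of 26.5 percentage points with no overlap. D7 IR TGFB1 had 53.6, 53.8 and 48.8% of the 418, at the level of D11 TGFB1 and overlapping it. The original 852 regions, looked up among the same 19907 peaks, were present at 42.9% in D11 vehicle and 27.5% in D11 TGFB1, 15.4 points apart (45.7, 42.1 and 41.0% against 30.8, 25.8 and 26.1%). On that scale even the D7 non-IR vehicle lists that defined the regions held 45.9 to 53.1% of them, so about as many of their peaks ranked below the top 19907 as within it. The D11 groups were thus apart under both readings, by nearly as much in the 418 regions and by less in the 852.

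Counted by region, 687 of the 852 (80.6%) had a peak in all 3 D11 vehicle lists. This pattern held for 44% of all 59945 regions and for 11.9% of the 29788 regions that the D7 IR vehicle lists lacked. In all 3 D11 TGFB1 lists 343 of the 852 (40.3%) had a peak, against 37.3% of all regions and 10% of the 29788. In all 3 D7 IR TGFB1 lists 112 (13.1%) had one, against 24% of all regions and 1.51% of the 29788. All 3 shares were above those of the 29788, most of which lacked a peak in 1 or more of the D7 non-IR vehicle lists as well. Against all regions the share was higher in D11 vehicle, near in D11 TGFB1 and lower in D7 IR TGFB1. Of the 19949 regions in all 3 D7 non-IR vehicle lists, 95.9% were in all 3 D11 vehicle lists. All 3 D11 TGFB1 lists held 83.6% of the 19949, and all 3 D7 IR TGFB1 lists held 66.9%. The lost regions were below these shares in each group. At the other end, 8 regions (0.939%) had no peak in any D11 vehicle list, against 19.2% of all regions and 0.0702% of the 19949 regions in all 3 D7 non-IR vehicle lists. No D11 TGFB1 list held 158 (18.5%), against 32.1 and 2.87%, and no D7 IR TGFB1 list held 305 (35.8%), against 51.3 and 7.49%. These shares were below those of all regions and above those of the 19949.

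Set against each other within D11, the lost regions differed in 1 direction far more often than in the other, as did the regions they were drawn from. In all 3 vehicle lists and no TGFB1 list were 101 of the 852 (11.9%), against 2.57% of all regions and 1.88% of the 19949 regions present in all 3 D7 non-IR vehicle lists. None of the 852 was in all 3 TGFB1 and no vehicle list, a pattern shown by 1.12% of all regions and by 1 of the 19949 (0.00501%). More vehicle than TGFB1 lists held 462 of the regions (54.2%), the same number of each held 351 (41.2%), and more TGFB1 lists held 39 (4.58%). Among the 14552 regions kept in all 3 D7 IR vehicle lists these shares were 7.32, 92.0 and 0.680%. Over all 19949 regions they were 15.3, 83.3 and 1.41%. The direction was thus shared by these sets, and the lost regions differed more often in either direction. With equal list lengths, 37 of the 418 lost regions (8.85%) were in all 3 vehicle and no TGFB1 list and 1 (0.239%) was the reverse. Over all regions of the shortened lists these shares were 1.89 and 1.93%. That is not a like base, because the 418 were chosen for peaks in all 3 D7 non-IR vehicle lists. Regions so chosen were not counted for these patterns at equal length.

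**Figure D3:**
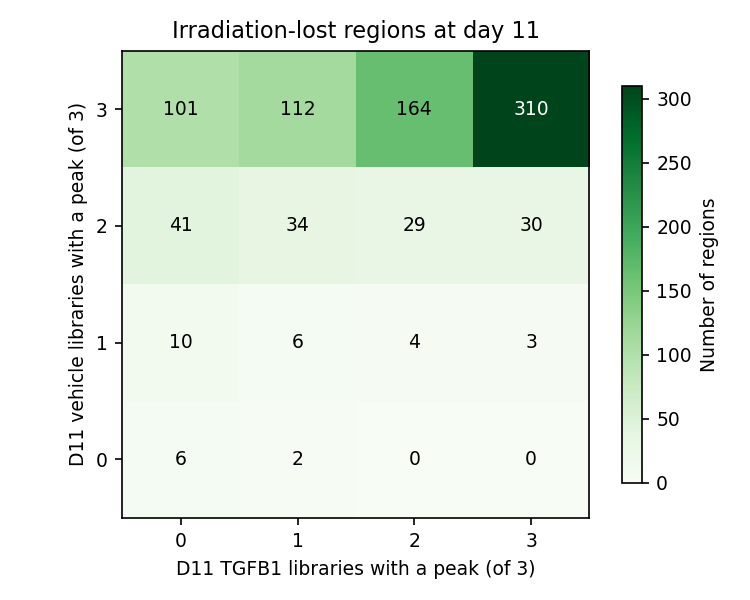
Number of irradiation-lost regions (printed in each cell and shown by colour) by how many D11 vehicle lists (y axis, 0 to 3) and D11 TGFB1 lists (x axis, 0 to 3) held a peak. The largest cell, 310 regions, is in all lists of both groups, 101 regions are in all vehicle lists and no TGFB1 list, and the opposite corner holds 0.

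The same irradiation contrast was also available under TGFB1, in 6 D7 libraries that the rule did not use. All 3 D7 non-IR TGFB1 lists held 379 of the 852 regions (44.5%), against 36% of all regions and 88.2% of the 19949. By library, D7 non-IR TGFB1 held 83.3, 64.8 and 61.3% of the 852 regions (69.8% ± 11.9, SD, n = 3). D7 IR TGFB1 held the 53.3, 31.9 and 29.5% given above. The groups did not overlap and differed by 31.6 percentage points. A gap of this size was not particular to the lost regions. Among regions in all 3 D7 non-IR vehicle lists, it was 31.4 points in those with 1 D7 IR vehicle list. It was 27.2 points in those with 2 such lists, 8.29 in kept regions and 14.4 over all regions. The lists of the 2 TGFB1 groups differed in length in the same order. They held 38299, 29740 and 27451 peaks without irradiation against 27368, 19907 and 20522 with it. With equal list lengths the difference was 8.13 points over the 418 regions (60.0, 58.1 and 62.4% against 53.6, 53.8 and 48.8%). The original 852, looked up in the shortened lists, differed by 2.74 points, and the groups then overlapped (33.7, 31.5 and 33.6% against 30.9, 31.9 and 27.7%). The difference between these 2 groups was thus smaller under both readings, and the part of list length in it was not tested. The 418 are mostly other regions. On the scale used for the 852, even the D7 non-IR vehicle lists held only 45.9 to 53.1% of them. The D11 difference fell as well in the 852, from 30.3 to 15.4 points, with the groups still apart. In the full lists 85 regions (9.98%) were in all 3 D7 non-IR TGFB1 and no D7 IR TGFB1 list, against 3.15% of all regions and 3.56% of the 19949, and 0 were the reverse, against 0.103% of all regions. With equal lengths it was 15 of 418 (3.59%), against 1.27% of all regions, which is again not a like base. Regions in all 3 D7 non-IR vehicle lists were not counted for this pattern at equal length.

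How far a region's absence in D7 IR vehicle was shared with its level elsewhere was seen by stepping across the rule's threshold. The 19949 regions present in all 3 D7 non-IR vehicle lists were in 0, 1, 2 or 3 D7 IR vehicle lists in 852, 1645, 2900 and 14552 cases. Mean presence in D11 TGFB1 over these 4 sets was 61.7, 73.6, 83.5 and 96.4%, and in D11 vehicle 92.0, 94.9, 97.0 and 99.5%. In D7 IR TGFB1 it was 38.2, 50.1, 62.7 and 89.8%, and in D7 non-IR TGFB1 69.8, 81.4, 89.9 and 98.1%. The lost regions were the low end of a gradient in each of these groups, the non-irradiated one included, and not a set apart. The gap between D11 vehicle and D11 TGFB1 narrowed along it from 30.3 to 21.3, 13.5 and 3.07 points. Presence in both groups neared its upper limit on the way, which leaves less room for a gap. The part of this limit in the narrowing was not tested. Just outside the threshold on the other side, 1662 regions in 2 of the 3 D7 non-IR vehicle lists and no D7 IR vehicle list were at 77.1% in D11 vehicle and 47.0% in D11 TGFB1. There the libraries of the 2 groups overlapped, with D11 vehicle replicate 3 at 55.5% and D11 TGFB1 replicate 2 at 56.4%.

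The lost regions had weak peaks in the lists that defined them. The lowest of a region's 3 scores in D7 non-IR vehicle had a median of 4.43 (interquartile range 3.39 to 5.76, whole range 1.32 to 12.2), and 343 regions (40.3%) reached 5. For comparison the median was 5.07 in regions with 1 D7 IR vehicle list, 5.94 with 2 and 13.7 in kept regions. Just outside the threshold, the single D7 IR vehicle peak of the 1645 regions had a median score of 4.82 and a lowest score of 1.30, and the weaker peak of the 1662 regions had a median of 4.29. A median lost-region peak scored 6.05 in D7 non-IR vehicle replicate 1, in a list whose median was 9.60. It scored 11.8 where the list median was 12.0 in D11 vehicle replicate 1, 10.8 where it was 9.11 in replicate 2, and 7.57 where it was 11.2 in replicate 3. In D11 TGFB1 the lost-region peaks that were called scored 7.59, 7.61 and 5.76 beside list medians of 10.4, 9.45 and 7.78, and in D7 IR TGFB1 4.96, 5.40 and 5.20 beside 6.95, 8.30 and 7.52. Except in D11 vehicle replicate 2, lost-region peaks were below the median of their list in each of these libraries.

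Presence in D11 vehicle rose from bin to bin with the strength of the D7 non-IR vehicle peak. In regions whose lowest score was under 3 (110 regions), D11 vehicle presence was 85.8%, and it was 89.9% (202 regions), 91.5% (197), 92.3% (151), 97.5% (145) and 100% (47) for scores of 3 to 4, 4 to 5, 5 to 6, 6 to 8 and at least 8. The other groups did not rise at every step, but each was highest in the last bin. D11 TGFB1 had 60.9, 61.7, 53.3, 63.4, 67.1 and 76.6%. D7 IR TGFB1 had 33.3, 35.1, 36.0, 34.7, 48.0 and 53.2%, and D7 non-IR TGFB1 had 67.3, 65.0, 64.8, 69.5, 80.5 and 85.1%. Kept regions in the bins under 8 were at 81.2, 82.1, 86.9, 87.7 and 91.7% in D11 TGFB1, above the lost regions of the same bin each time. The bin of at least 8 has no upper limit and is not matched in strength, since lost regions in it reach 12.2 and kept regions 229. Whether strength has a part in the difference was not tested. Among regions present in all 3 lists of a group, the mean D7 non-IR vehicle score and the group's mean score had a Pearson r of 0.54 (Spearman 0.49, 687 regions) in D11 vehicle, 0.23 (0.18, 343 regions) in D11 TGFB1 and 0.39 (0.38, 112 regions) in D7 IR TGFB1. These correlations run across regions, which share their libraries and depth, and describe these lists only.

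**Figure D4:**
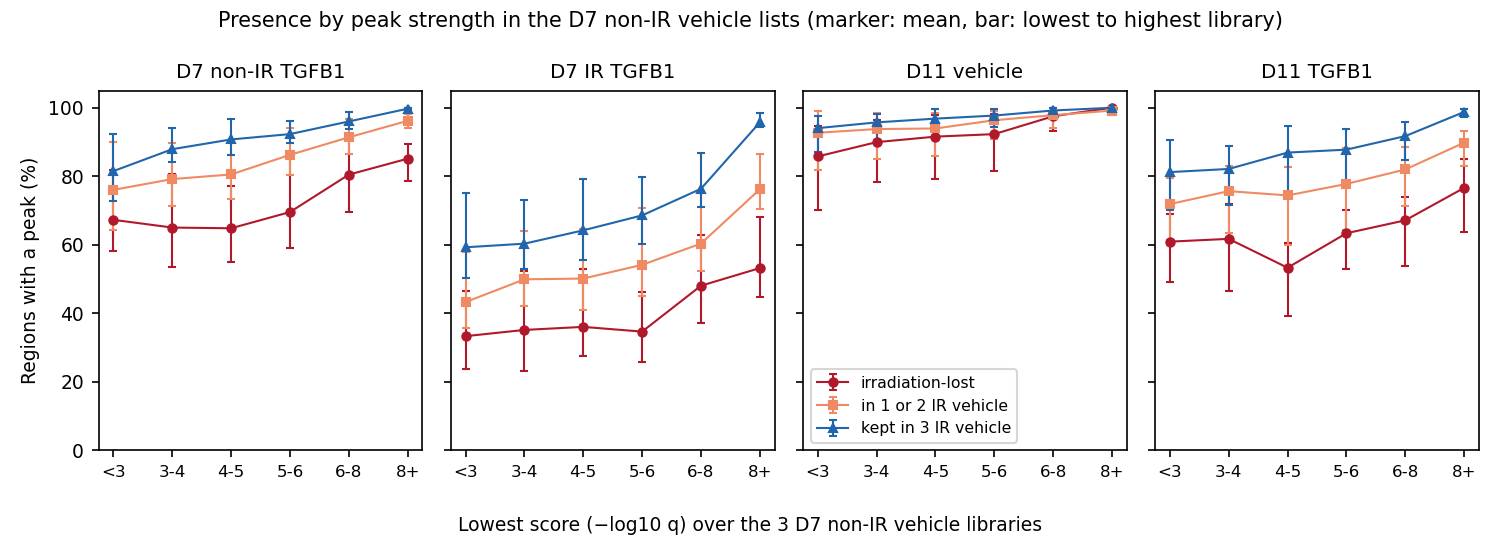
Mean share of regions with a peak (y axis, percent; bars from the lowest to the highest of 3 libraries) by the lowest score over the 3 D7 non-IR vehicle lists (x axis, −log10 q), in the 4 groups outside the rule. In D11 TGFB1 irradiation-lost regions (circles) are at 53.3 to 76.6% and kept regions (triangles) at 81.2 to 98.7% across the bins, of which the last has no upper limit and is not matched in strength.

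Regions that had a peak in more D7 IR TGFB1 lists also had one more often in the other groups. The 305, 229, 206 and 112 regions in 0, 1, 2 and 3 D7 IR TGFB1 lists were present in D11 TGFB1 at 46.3, 58.2, 75.7 and 84.8%. In D11 vehicle they were present at 88.7, 90.5, 95.1 and 98.2%, and in D7 non-IR TGFB1 at 55.5, 68.4, 80.6 and 91.7%. The non-irradiated TGFB1 libraries thus showed the same order as the D11 ones. All 3 D11 TGFB1 lists held 69 of the 305 regions (22.6%) and 83 of the 112 (74.1%). The median lowest score in D7 non-IR vehicle was 4.29, 4.43, 4.38 and 5.32 over the 4 sets, so they differed little in strength except for the last. A lost region was present in a median of 6 of the 9 other irradiated lists (interquartile range 4 to 7), in all 9 for 83 regions and in none for 3.

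The 83 regions present in all 9 of those lists had a median lowest D7 non-IR vehicle score of 5.66, and 5 of them were taken as examples by their lowest D7 non-IR vehicle score. Coordinates are given 1-based in mm9, the mouse build that the lists' positions fit among those named by the submitters. At chr9:44169453-44170170 the D7 non-IR vehicle scores were 14.3, 12.2 and 14.8, D7 IR vehicle had no peak, and D7 IR TGFB1 scored 15.3, 12.9 and 12.2. The same region scored 31.0, 31.4 and 20.1 in D11 vehicle, 17.7, 16.0 and 4.83 in D11 TGFB1 and 8.41, 12.6 and 8.40 in D7 non-IR TGFB1. It was thus called in every library outside the 3 D7 IR vehicle ones. At chr10:17513579-17514319 the scores were 9.86, 13.3 and 15.2 in D7 non-IR vehicle, 15.0, 4.22 and 6.83 in D7 IR TGFB1, 24.8, 21.6 and 14.7 in D11 vehicle and 19.5, 10.6 and 13.0 in D11 TGFB1. The others were chr4:101341661-101342991, chr7:140984965-140985766 and chr17:27022858-27023539, with D7 IR TGFB1 scores from 5.80 to 10.2. Of all regions that D7 IR vehicle lacked, 0.688% were in all 9 lists, against 9.74% of the lost regions and 66.2% of the other regions in all 3 D7 non-IR vehicle lists. The lost regions thus lay between these 2 bases.

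A further 55 regions (6.46%) were in all lists of both D11 groups and in no D7 IR TGFB1 list, against 449 (2.35%) of the other regions in all 3 D7 non-IR vehicle lists. At chr7:20147215-20148157 the D7 non-IR vehicle scores were 9.20, 13.1 and 11.7, and neither TGFB1 group of D7 had a peak. The region scored 18.2, 16.7 and 13.2 in D11 vehicle and 10.5, 5.61 and 6.90 in D11 TGFB1, so both D11 groups had it again. At chr17:13837161-13837821 the scores were 9.26, 20.4 and 12.0 in D7 non-IR vehicle, 14.8, 10.0 and 19.1 in D7 non-IR TGFB1, 28.4, 29.7 and 21.6 in D11 vehicle and 18.2, 14.4 and 5.78 in D11 TGFB1. This region lacked a peak in all 6 irradiated D7 libraries and had one in all 12 others. The remaining examples of the pattern were chr11:31269780-31270534, chr6:78453669-78454457 and chr8:67560806-67561474.

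The 101 regions of D11 vehicle that no D11 TGFB1 list held had a median lowest D7 non-IR vehicle score of 4.60, near that of all lost regions. At chr11:95772727-95773384 the D7 non-IR vehicle scores were 16.9, 9.69 and 16.7 and the D11 vehicle scores 18.2, 14.5 and 8.91. D7 non-IR TGFB1 replicates 1 and 3 scored 9.39 and 5.28, replicate 2 had no peak, and no D7 IR or D11 TGFB1 library had one. At chr7:52962812-52964090 the scores were 9.58, 11.5 and 9.23 in D7 non-IR vehicle and 10.2, 11.1 and 5.06 in D11 vehicle. There no D7 non-IR TGFB1 list and 2 D7 IR TGFB1 lists had a peak, at 1.88 and 4.20, the first of them close to the lowest score a list can hold. At chr4:128911522-128912239 D7 IR TGFB1 had a peak in all 3 lists, at 3.87, 5.85 and 5.11, beside D11 vehicle scores of 8.82, 10.5 and 6.91. Absence in D11 TGFB1 was therefore not always joined to absence in D7 IR TGFB1. At chr19:40655204-40655930 a single D7 IR TGFB1 library, replicate 1, had a peak, with a score of 4.68.

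The 3 regions with no peak in any of the 9 other irradiated lists were weak ones. At chr17:65313385-65314042 the D7 non-IR vehicle scores were 6.05, 4.29 and 5.89, and none of the 15 other lists had a peak. At chr10:14715914-14716717 they were 7.09, 5.28 and 2.54, with 1 further peak of 4.16 in D7 non-IR TGFB1 replicate 2. At chr2:140603771-140604486 they were 3.18, 7.36 and 1.70, with no further peak. Of the 19949 regions in all 3 D7 non-IR vehicle lists, 0.0251% had none of the 9, against 0.352% of the lost regions.

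**Figure D5:**
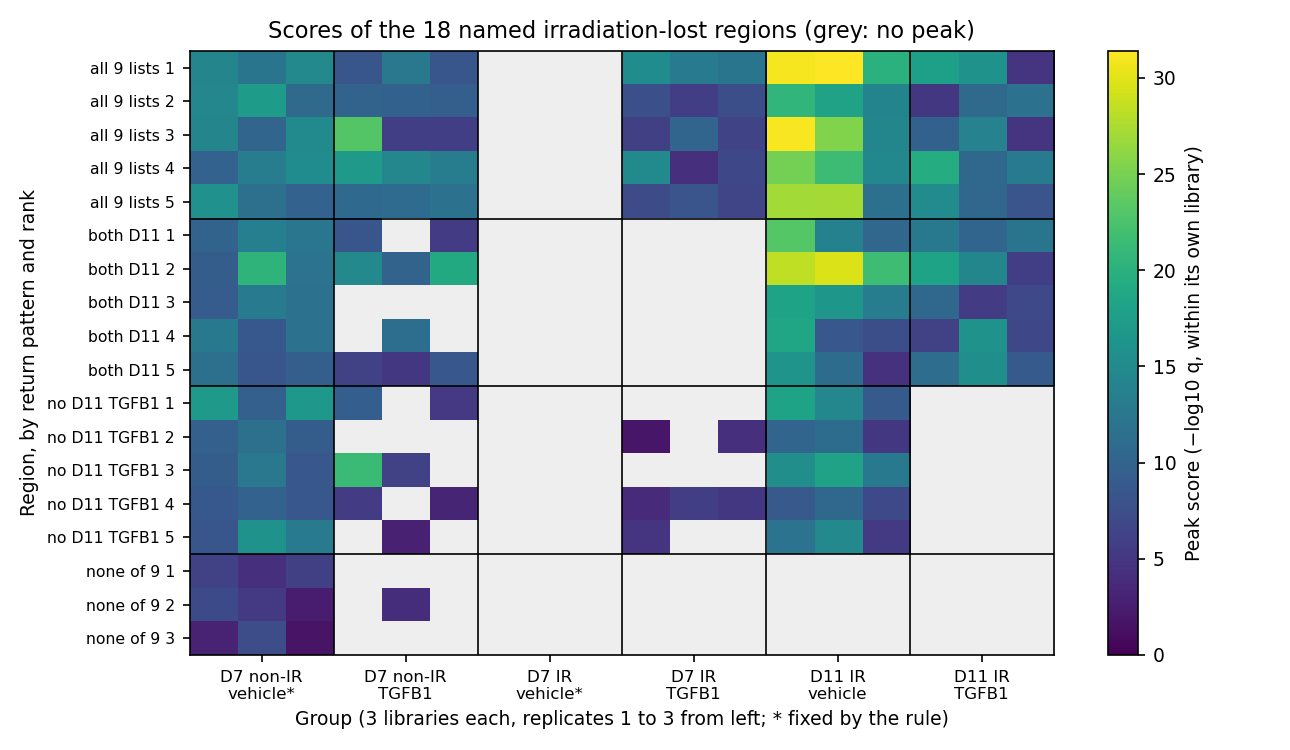
Scores (colour, −log10 q within each library, grey where no peak was called) of the 18 regions chosen by return pattern (rows) in the 18 libraries (columns, 3 per group). The 5 regions in all 9 other irradiated lists score 20.1 to 31.4 at their strongest example in D11 vehicle, and the 3 regions at the bottom have no peak in any irradiated library.

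The lost regions had a median width of 755 bp, against 783 bp for kept regions and 695 bp for all regions. They were scattered over the genome. On each of the 19 chromosomes 3.43% (chromosome 4) to 6.41% (chromosome 19) of the regions in all 3 D7 non-IR vehicle lists were lost, against 4.27% over all. Among regions present in all 3 D7 non-IR vehicle lists, 79 of the 852 (9.27%) had another lost region as a direct neighbour, against 8.32% of the regions that were not lost. Neighbours of lost regions were themselves lost in 4.70% of cases and kept in 71.5%, against 4.25 and 73.0% for the other regions. The losses thus stood mostly alone, as 773 single regions, 38 adjacent pairs and 1 run of 3.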

How the data were processed

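ATAC-seq peak lists of 18 libraries were analysed. Per the file names and the submitters' processing notes, the authors used Picard 2.18.27, called peaks with MACS2 2.1.0 at q 0.05 in each library and subtracted a blacklist, and the deposited score was read as −log10 of the q-value, since no score lies under −log10 of 0.05. Builds in those notes (mm9 and a later assembly) have no role given. Peaks ran past the last RefSeq gene of GRCm38 on chromosome 1 (197175936 against 195291439) and others, so the positions were taken as mm9. No mm9 genome or annotation was used here, so no genes, sequences or motifs were assigned, and the planned RNA results of linked genes were not run. FPKM values deposited by the authors served only the marker check. Lists were merged in Python 3.11.15 with pandas 2.3.3, checked on simulated lists. The named regions are, for each return pattern, up to 5 with the highest lowest score over the D7 non-IR vehicle lists. Groups came from sample titles, and 0 table columns were left unmapped. Depth is unknown, so no interval is given, and the shares carry no test. Alternatives changed the score minimum, list length, merging, lists merged, strength and replicates. Members and lists were chosen with earlier results of these data known.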

Additional observations from a re-analysis of the deposited data

How the results depend on the processing

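Of 191 values from 12 results under the alternatives, 145 stayed within the spread between replicates or within 1.5 times the count, 46 moved and 0 reversed. Only the differences between groups could reverse, since counts and shares cannot change sign. With equal numbers of highest-scoring peaks (19907 per list), the lost regions numbered 418, of which 243 were in all D11 vehicle lists, 118 in all D11 TGFB1 lists, 9 in none of the 9 other irradiated lists and 15 lost again under TGFB1. Presence was then 52.1% in D7 IR TGFB1, 76.4% in D11 vehicle and 49.9% in D11 TGFB1, and the D7 TGFB1 groups differed by 8.13 points. An alternative chosen after seeing the data looked up the original 852 in those lists and gave 42.9% in D11 vehicle, 27.5% in D11 TGFB1, 32.9% in D7 non-IR TGFB1, 15.4 points between the D11 groups and 2.74 points between the D7 TGFB1 groups. With peaks scoring at least 5 alone, the rule found 1200 regions, of which 5 were in none of the 9 and 159 were lost again. Keeping regions that scored at least 5 in each D7 non-IR vehicle list left 303 in all D11 vehicle, 160 in all D11 TGFB1 and 64 in all D7 IR TGFB1 lists, with 0 in none of the 9 and 41 lost again. Fewer regions enter these last counts by construction. The cause of the other changes was not tested.

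Leaving out 1 library at a time moved the number of lost regions to 1254 to 1482. It was 1406, 1476 and 1336 without D7 non-IR vehicle replicates 1, 2 and 3, and 1254, 1465 and 1482 without D7 IR vehicle replicates 1, 2 and 3, since the rule then asks less. Presence ranged over 30.7 to 43.7% in D7 IR TGFB1, 86.0 to 97.2% in D11 vehicle, 55.8 to 68.3% in D11 TGFB1 and 61.9 to 75.0% in D7 non-IR TGFB1. The D11 groups stayed 23.7 to 35.5 points apart and the D7 TGFB1 groups 24.8 to 39.1. Counts ranged over 690 to 1235 in all D11 vehicle lists, 371 to 692 in all D11 TGFB1 lists, 132 to 260 in all D7 IR TGFB1 lists, 3 to 15 in none of the 9 and 96 to 153 lost again. No paired analysis was possible because the results come from no test to which a replicate block could be added. The planned RNA results of genes linked to the regions, with their alternatives, were not run, since no annotation in the build of the lists was used here. Unknown read depth limits every share: a region without a peak may be open below the threshold of its list.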

Other observations

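On the X chromosome, which the rule leaves out, 26 of 456 regions in all 3 D7 non-IR vehicle lists had no D7 IR vehicle peak (5.70%, against 4.27% on chromosomes 1 to 19). Of these, 25, 25 and 20 had a peak in D11 vehicle replicates 1, 2 and 3, and 19, 21 and 16 had one in D11 TGFB1. D7 IR TGFB1 held 13, 6 and 6 of them. D7 non-IR TGFB1 held 24, 0 and 16, and its replicate 2 list holds no X chromosome peak at all.

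The reverse set, in all 3 D7 IR vehicle lists and no D7 non-IR vehicle list, numbered 114 in the full lists and 241 with equal list lengths. In the full lists these 114 were present at 57.3% ± 20.8 in D11 vehicle and 47.7% ± 12.3 in D11 TGFB1 (SD, n = 3), with overlapping libraries. With equal lengths the 241 were at 27.4, 24.1 and 24.9% in D11 vehicle and 34.9, 37.3 and 37.8% in D11 TGFB1, with TGFB1 above vehicle. The 241 were chosen anew from the shortened lists and are not the 114.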
